A study of Caenorhabditis elegans with 27 samples.

Results

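The comparison is that of old Caenorhabditis elegans kept with 0.2 mM HuminFeed against untreated worms of the same age. HuminFeed (HF) is a commercial preparation of humic substances, the brown organic matter that remains when plant material decays, and its dose is given as the molar concentration of dissolved organic carbon. The members were chosen by the array titles: 3 arrays of worms with 0.2 mM HF at 11 days and the 3 control arrays of that experiment, which are 6 of the 27 arrays of the series. All of these worms, controls included, had the GE24 background with pha-1(e2123), a temperature-sensitive allele whose embryos die at the restrictive temperature. According to the labels both were kept on their plates at 15 °C for 5 days, hatchlings were filtered out through a 10 µm membrane, and these were grown at 25 °C until day 11, with HF added anew at each feeding. The study's design calls the worms adults, while the age tag of all arrays names the last larval stage, and RNA came from whole animals. For comparison there were 3 arrays each of worms with 0.2 mM HF and without at 3 days, and 3 arrays of worms with 2.0 mM HF at 11 days. Conditions were grown in triplicate, but nothing says whether these were separate populations, so p-values here measure only the spread between arrays, which may be technical.

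Worms eat bacteria, and much of what they meet in food or medium is handled in the gut, where cytochrome P450 enzymes, short-chain dehydrogenases, UDP-glucuronosyltransferases and glutathione S-transferases alter and conjugate foreign compounds, and where lysozymes, C-type lectin-like proteins and antimicrobial peptides act on microbes. Humic substances are known in this species as mild chemical stressors that change such defence genes. A hermaphrodite makes a fixed supply of sperm first and then oocytes, and the gut makes the yolk. The cuticle is built of collagens by the epidermis, with a precuticle of zona pellucida domain and lipocalin proteins laid down before each new layer.

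Between 8982 and 9000 probe sets (groups of short probes for 1 transcript) of 22548 lay over log2 5 on the arrays with 0.2 mM HF, and between 8845 and 8909 on the control arrays. The 3 arrays with 0.2 mM HF correlated at 0.998 with each other over the tested probe sets. Control array 1 stood apart, with correlations of 0.995 with the other controls, against 0.997 between those. The median SD between arrays was 0.0567 with 0.2 mM HF and 0.0825 in controls, and the small number of arrays limits the precision of every value. The signal of 4 control transcripts near their 5′ end relative to their 3′ end, which falls when RNA is degraded, differed by 0.0625 or less (log2) between the groups (exact permutation test, p = 0.5 to 1.0). The hybridization controls averaged 9.41 ± 0.05 with 0.2 mM HF and 9.55 ± 0.09 in controls (log2, SD, n = 3 each, exact permutation p = 0.1, the smallest that 3 against 3 arrays allow).

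At 11 days few transcripts passed the test with 0.2 mM HF, by small amounts, and most of these were higher. Of 8982 tested probe sets limma called 475 (5.29%) at an adjusted p under 0.05, of which 380 (4.23%) were higher and 95 (1.06%) lower with 0.2 mM HF. Only 10 of the rises and 2 of the falls reached 2-fold, and the median log2 change was 0.42 among the rises and -0.36 among the falls. Over all tested probe sets the median change was 0.02, and 1734 had an unadjusted p under 0.05. In all 475 the 3 arrays with 0.2 mM HF lay beyond the 3 controls, which was so for 25.5% of all tested probe sets. The balance was 300 higher to 139 lower after quantile normalization. Without control array 1 there were 573 calls, of which 395 were among the 475, and without any 1 of the other arrays there were between 182 and 318. In 29 of the rises all 3 controls lay under log2 5, and in 3 of the falls all 3 arrays with 0.2 mM HF did, so that the sizes of these changes depend on how the normalization treats dim probes.

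The largest rise was that of E02C12.6, with log2 signals of 7.57, 7.71 and 7.60 in worms with 0.2 mM HF, against 4.79, 4.64 and 4.61 in controls. Every treated array lay far above every control, and no control reached the filter at log2 5. The gene was thus tested only because the treated arrays were high. The change was 2.95 ± 0.07 (log2 ± SE, n = 3 per group, limma adjusted p = 1.9e-06). Next came dhs-14, of the short-chain dehydrogenases, with 9.94, 9.87 and 10.06 with 0.2 mM HF, against 8.38, 8.30 and 8.29 in controls. These are bright probes, and the groups were well apart at 1.63 ± 0.06 (limma adjusted p = 3.9e-05). The uncharacterized F58B4.5 rose by 1.54 ± 0.07. The signal of hrg-7, which encodes a secreted protease-like protein through which the gut reports its haem status to neurons, was 8.11, 8.12 and 8.14 with 0.2 mM HF, against 6.91, 6.59 and 6.60 in controls. The treated arrays nearly coincided, and control 1 was the highest of the controls but still far below them (1.42 ± 0.09, limma adjusted p = 0.00023).

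Both fasting-induced lipases on the list of lipid genes were among the leading rises. For fil-2 the signals were 5.37, 5.41 and 5.34 with 0.2 mM HF, against 3.88, 3.91 and 4.32 in controls. For fil-1 they were 7.38, 7.16 and 7.23 with 0.2 mM HF, against 6.43, 6.22 and 6.20 in controls. In both genes the groups were apart by more than the spread within either, with changes of 1.34 ± 0.11 and 0.97 ± 0.08 (limma adjusted p = 0.00081 for each). Of 18 tested genes of lipases and yolk lipid transport these 2 rose and 2 fell (median 0.06, against 0.01 over all 6805 tested genes). Among those 6805 genes 4.51% rose and 1.15% fell. The 2 falls in the list were those of the lysosomal-type lipases lipl-2 (-0.49 ± 0.07) and lipl-1 (-0.26 ± 0.06). Without any 1 of the treated arrays fil-2 no longer passed the filter, and the call of lipl-1 was lost without any 1 of the 6 arrays; lips-10, a lipase gene at 0.25 ± 0.06, did not pass by its brightest probe set although a dimmer one was called. Other leading rises were those of M28.10 (1.11 ± 0.07), of C17H12.8 (1.096 ± 0.06, and 0.93 ± 0.08 by another probe set), of dbd-2 (0.96 ± 0.08) and of D1086.3 (0.91 ± 0.07).

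The largest fall was that of T10B5.8, with 3.93, 4.16 and 3.95 in worms with 0.2 mM HF, against 6.39, 6.75 and 6.90 in controls. All treated arrays were under the filter while all controls were above it (-2.67 ± 0.13, limma adjusted p = 8.2e-05). The gene was thus tested only through the controls, where it is high. A gene of the short-chain dehydrogenase family, dhs-26, had 5.31, 5.51 and 5.63 with 0.2 mM HF, against 7.58, 7.42 and 7.40 in controls. Its fall of 1.98 ± 0.09 on the log2 scale (limma adjusted p = 8.0e-05) thus ran opposite to the rise of its relative dhs-14. The next were much smaller. The invertebrate-type lysozyme gene ilys-3 had 8.50, 8.39 and 8.40 with 0.2 mM HF, against 9.33, 9.44 and 9.30 in controls (-0.93 ± 0.06, limma adjusted p = 0.00025). The gene scl-2 of a secreted cysteine-rich protein had 8.62, 8.66 and 8.71 with 0.2 mM HF, against 9.60, 9.60 and 9.54 in controls (-0.92 ± 0.05). In both genes the arrays within a group lay close together, and the groups did not overlap. Also C14C6.5 (-0.95 ± 0.05, and -0.91 ± 0.06 by another probe set) and C40H1.7 (-0.89 ± 0.08) fell, as did pmp-5, an ABC transporter gene of the peroxisome (-0.75 ± 0.09), folt-2, a folate transporter gene (-0.67 ± 0.06), and the infection response gene irg-2 (-0.67 ± 0.11). The call of irg-2 was lost without control array 2 or any 1 of the treated arrays.

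**Figure D1:**
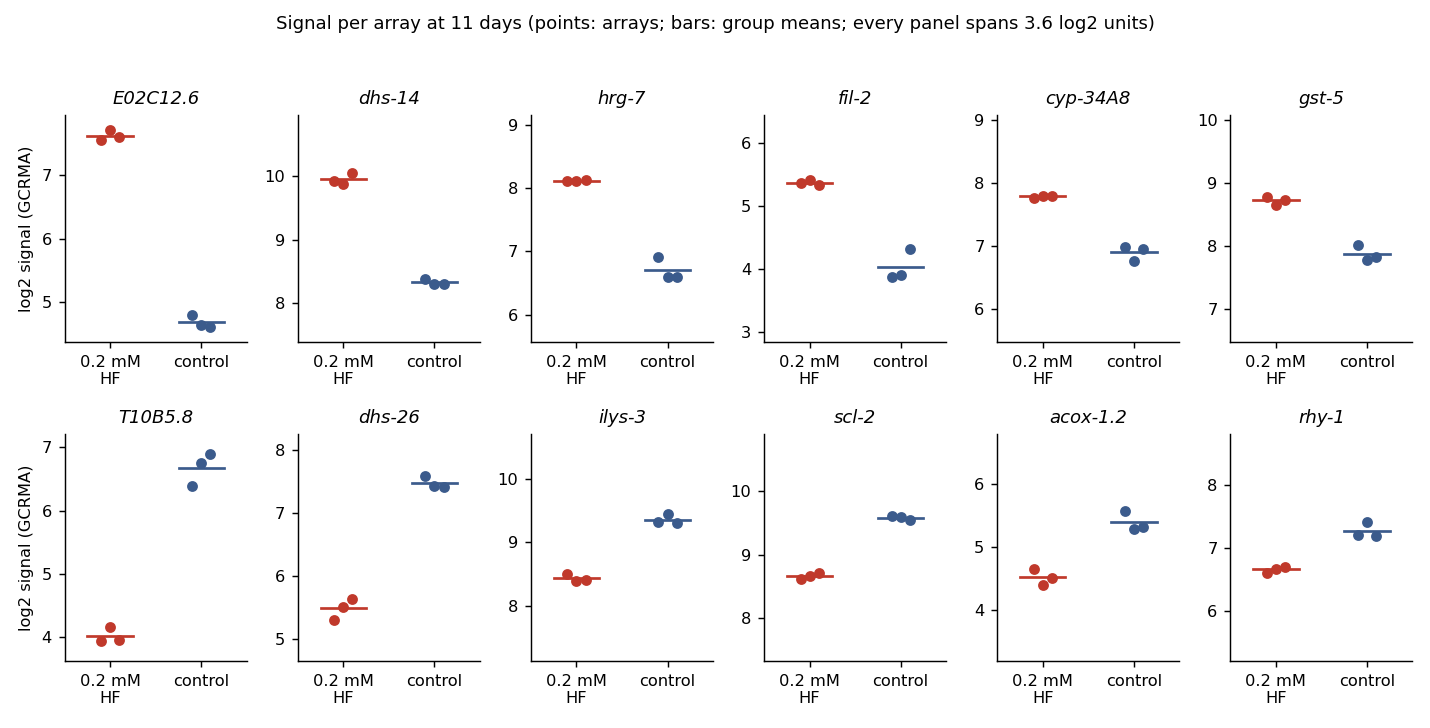
Log2 signal (vertical axes) of 6 genes that rose and 6 that fell at 11 days, with 0.2 mM HF on the left and control on the right of each panel. Points are single arrays and bars are group means of 3; in each panel the treated arrays lie wholly above or wholly below the controls.

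The genes of the major sperm protein (MSP) family rose together. MSP is the small protein whose filaments move the crawling sperm and which also acts as a signal to the oocyte and gonad. Of 19 tested MSP genes with probe sets of their own 18 rose, none fell and 1 did not pass, with a median change of 0.86, against 307 rises (4.51%) and 78 falls (1.15%) among all 6805 genes. Including probe sets shared by several MSP genes, 25 of 26 rose (range of all 26 from 0.53 to 1.02). MSP genes are near-identical copies, the probe sets share signal, and they are not independent genes. The MSP probe sets made up 25 of the 380 rises.

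The brightest MSP probe set of a single gene, that of msp-78, had 8.86, 8.93 and 8.85 with 0.2 mM HF, against 8.04, 7.88 and 7.90 in controls (0.94 ± 0.06, limma adjusted p = 0.00023). For msp-45 the signals were 5.24, 5.41 and 5.27 with 0.2 mM HF, against 4.41, 4.16 and 4.29 in controls (1.02 ± 0.08). All controls of msp-45, and of msp-63, were under the filter, so that these genes were tested only because the treated arrays were high. In both genes, and in all 26 probe sets, every treated array was above every control. The probe set that was not called, msp-142, had 5.27, 5.32 and 5.51 with 0.2 mM HF, against 5.18, 4.89 and 4.42 in controls (0.53 ± 0.17, limma adjusted p = 0.142), and its controls spread more widely than the step between groups. Without a filter on low values 11 of these genes rose, with a filter at log2 7 all 10 that could be tested did, and between 13 and 19 did when single arrays were left out. Of 33 spermatogenesis genes outside the family on the array 8 passed the filter, and of these none rose and 1 fell (median -0.05). That gene was spe-5, which encodes a vacuolar ATPase subunit (-0.26 ± 0.06, a call lost without any 1 of the arrays except control 1). With 4.51% of all tested genes higher and 1.15% lower, 8 genes hold few calls. The absence of rises among these 8 is thus not read as a lack of response. The defining sperm markers spe-9, fer-1 and gsp-3 lay between 2.01 and 2.87 with 0.2 mM HF and between 2.01 and 2.70 in controls, near the floor of the scale. The sum over the 4 sperm markers was 12.09 to 12.31 with 0.2 mM HF and 11.18 to 12.01 in controls; the other marker is msp-142, which makes up most of that difference, so the sum is not separate from the MSP values. In whole worms a larger share of cells of a type and more RNA per cell cannot be told apart.

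**Figure D2:**
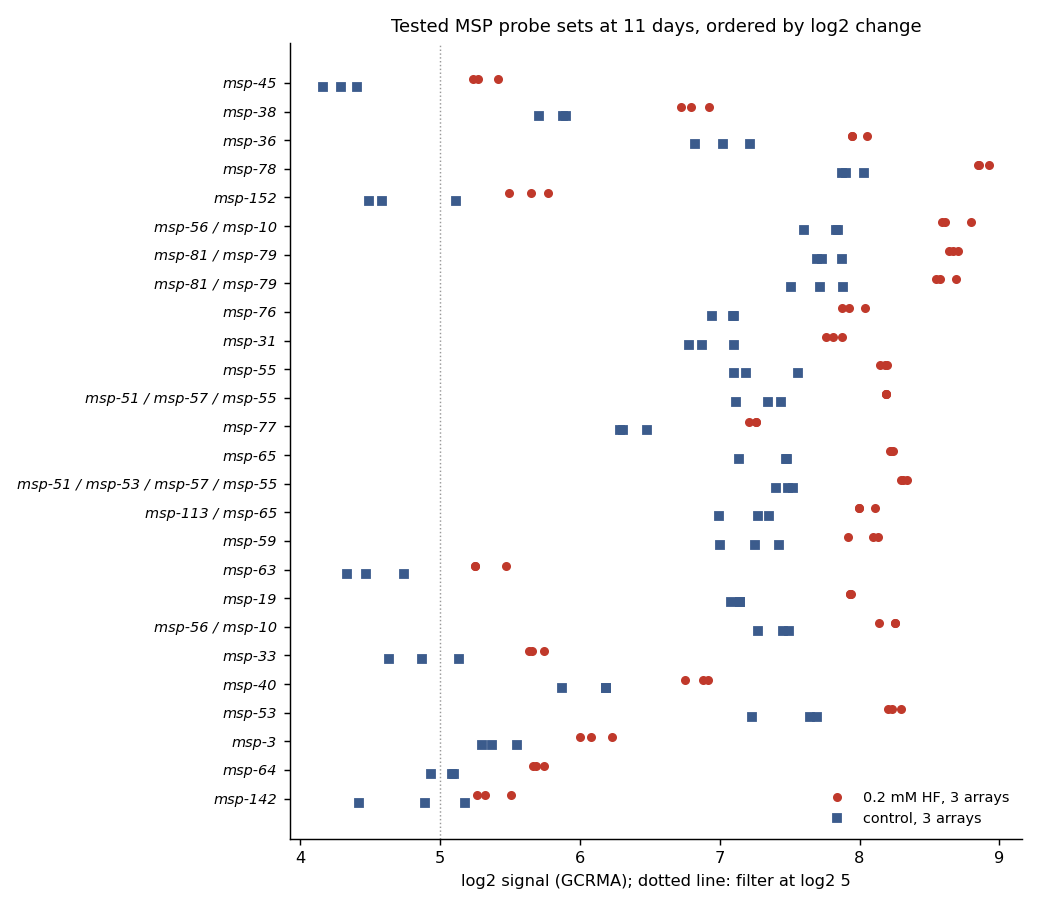
Log2 signal (horizontal axis) of the 26 tested MSP probe sets on the 3 arrays with 0.2 mM HF (circles) and the 3 control arrays (squares) at 11 days, ordered by log2 change from 1.02 at the top to 0.53 at the bottom. For every probe set the circles lie to the right of the squares; only msp-142 did not pass the test.

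Few other genes of reproduction were called. Over all tested genes 4.51% rose and 1.15% fell, so lists of this size hold few calls. The counts here are thus not read as a result about reproduction. Of 54 tested oocyte and germ line genes 1 rose and none fell (median 0.02). That gene was lin-41, which holds back the maturation of oocytes, with 9.02, 9.14 and 9.17 with 0.2 mM HF, against 8.85, 8.90 and 8.80 in controls (0.26 ± 0.06, a call lost without any 1 array). None of 14 eggshell genes passed, and of 57 genes of the cell cycle and DNA replication 1 fell, orc-5 of the origin recognition complex (-0.30 ± 0.07, also lost without any 1 array). The 8 germ line and oocyte markers, among them gld-1 with 10.37 to 10.53 with 0.2 mM HF and 10.35 to 10.39 in controls, were bright and none was called. None of the 5 yolk protein genes passed either. The changes of vit-1 and vit-2 were 0.19 ± 0.10 and 0.20 ± 0.07 (limma adjusted p = 0.37 and 0.191), and those of vit-4, vit-5 and vit-6 were 0.05, 0.06 and 0.08. Of 11 embryonic genes sdz-27 (0.30 ± 0.05) and sdz-8 (0.55 ± 0.12) rose, while all 5 embryo markers were under the filter. Both calls were lost without treated array 1 or 2.

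Several genes of the body surface were higher. Of 24 tested genes of moulting and of hedgehog-like and patched-like proteins 8 rose and none fell (median 0.23). The shares over all tested genes were 4.51% and 1.15%. In this list noah-2, which encodes a zona pellucida domain protein of the precuticle, had 7.45, 7.41 and 7.28 with 0.2 mM HF, against 6.90, 6.67 and 6.81 in controls (0.58 ± 0.07, limma adjusted p = 0.0044). The hedgehog-like gene grd-5 had 7.50, 7.38 and 7.45 with 0.2 mM HF, against 6.82, 6.94 and 6.92 in controls (0.55 ± 0.06, limma adjusted p = 0.0018). In both genes the lowest treated array was above the highest control by more than the range of either group. The protease inhibitor gene mlt-11 (0.58 ± 0.12) and let-653 of a precuticle glycoprotein (0.57 ± 0.12) rose too, whereas the hedgehog-like grd-14 (0.28 ± 0.12) did not pass. All controls of let-653 were under the filter, so that it was tested only because the treated arrays were high. The calls of mlt-11 and let-653 were lost without control array 2, among others, and between 3 and 7 genes of this list were called when single arrays were left out.

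Of 41 tested cuticle collagen genes 6 rose and none fell (median 0.10), against 4.51% and 1.15% of all tested genes. The level of dpy-14, a collagen of the embryonic cuticle, was 8.89, 8.83 and 8.92 with 0.2 mM HF, against 8.26, 8.30 and 8.45 in controls (0.54 ± 0.06, limma adjusted p = 0.0027). The groups did not overlap. The change of col-183 was 0.66 ± 0.09, but all of its controls were under the filter and it was tested only because the treated arrays were high. The gene dpy-17 rose by 0.49 ± 0.08 and col-121 by 0.44 ± 0.10, while col-98 (0.37 ± 0.11) and the adult collagen col-19 (0.21) did not pass. Leaving out any 1 of the arrays with 0.2 mM HF left a single call in this list. None of the 4 epidermal markers was called: dpy-7 and rol-6 were under the filter and not tested, and col-19 and mup-4 (0.17) did not pass. The sum over all 4 was 20.43 to 20.56 with 0.2 mM HF and 19.51 to 20.34 in controls. The largest difference in it was that of the dim dpy-7 (0.34), while rol-6 changed by -0.06. The part of epidermal cells in the rises was not tested.

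Of 33 tested genes of body wall muscle 4 rose and none fell (median 0.12), where 4.51% of all tested genes rose and 1.15% fell. The troponin T gene tnt-2 had 8.04, 7.99 and 8.05 with 0.2 mM HF, against 7.36, 7.54 and 7.52 in controls (0.55 ± 0.06, limma adjusted p = 0.0026). All 3 treated arrays were above the controls, and so were those of mup-2, another troponin T gene (0.34 ± 0.04), of cpn-3, a calponin gene (0.34 ± 0.07), and of the myosin gene unc-54 (0.37 ± 0.07). The call of unc-54 was lost without control array 1, among others, and the actinin gene atn-1 (0.39 ± 0.13) did not pass. Between 2 and 6 genes of this list were called when single arrays were left out. The sum of the 4 muscle markers was 29.17 to 29.24 with 0.2 mM HF and 28.50 to 28.82 in controls, with myo-3 at 3.37 or less throughout. The largest difference in it was that of unc-54, so the sum is not separate from the called genes. The markers unc-15 (0.17) and pat-10 (0.15) were not called. The sum of the 6 intestinal markers was 41.43 to 41.92 with 0.2 mM HF and 40.21 to 40.45 in controls. The largest difference in it was that of elt-2, which was under the filter and not tested (means 4.90 and 4.29). None of the 4 intestinal markers that were tested was called. Of 23 intestinal genes none rose and 1, the ferritin gene ftn-1, fell (median 0.10). At the shares over all tested genes a list of this size holds few calls, so this count is not read as a result. For germ line markers the sums were 38.79 to 38.89 with 0.2 mM HF and 38.59 to 38.63 in controls. Coelomocyte markers summed to 10.08 to 10.62 with 0.2 mM HF and 9.66 to 9.86 in controls. Embryo markers, all under the filter, went the other way, with 15.19 to 15.52 and 15.57 to 15.94. The sums of oocyte, neuron and pharynx markers overlapped between the groups.

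**Figure D3:**
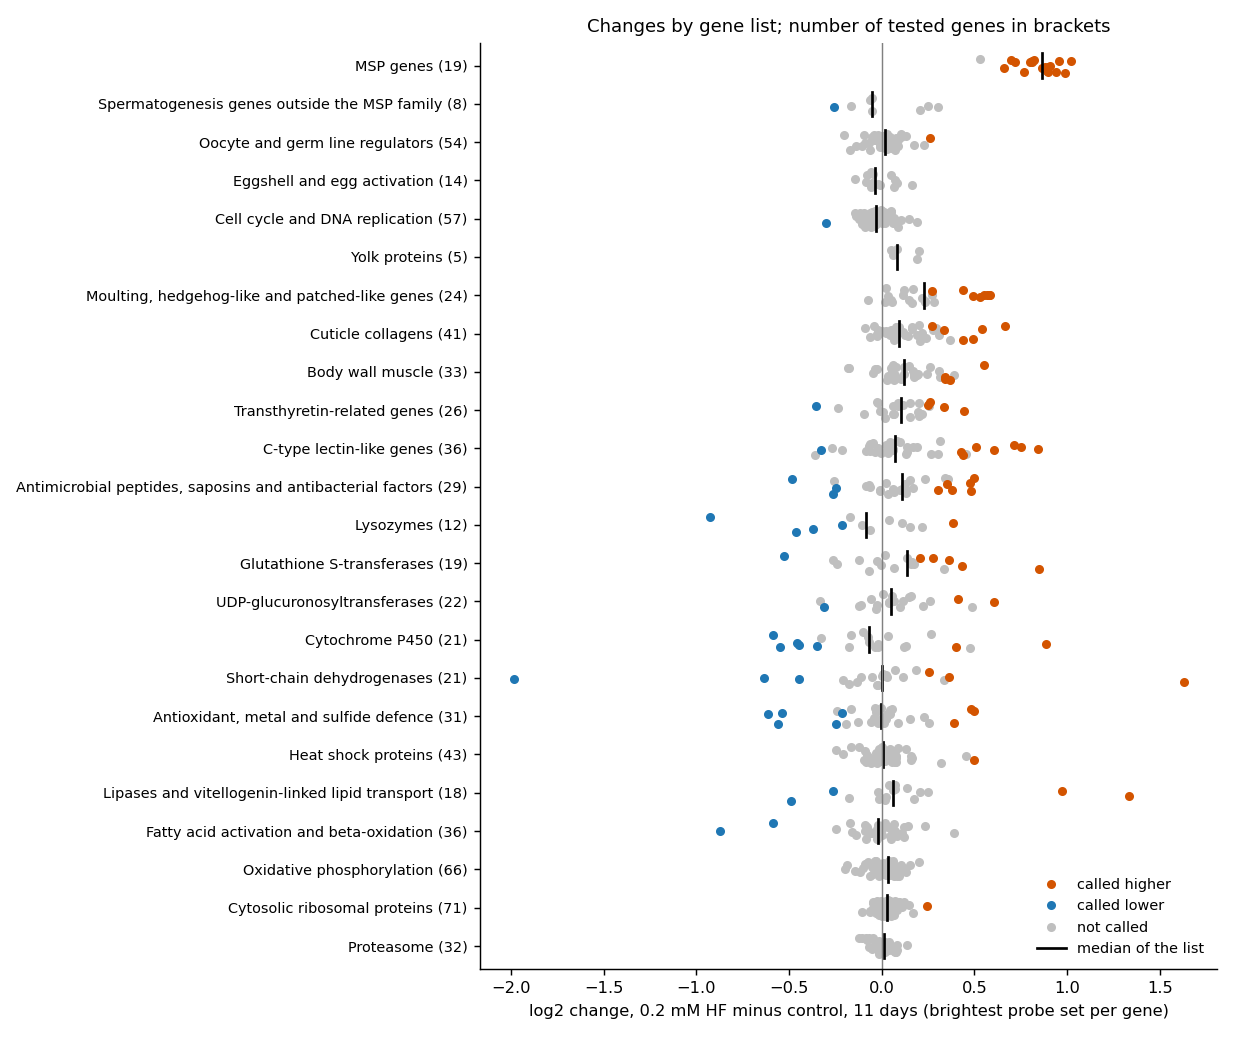
Log2 change (horizontal axis, 0.2 mM HF minus control at 11 days) of the tested genes of 24 gene lists, 1 point per gene by its brightest probe set, with called genes in colour and a bar at each list's median. The median is 0.86 for MSP genes, 0.23 for moulting genes and -0.09 for lysozymes.

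Defence genes against microbes moved both ways. Of 12 tested lysozyme genes 4 fell and 1 rose (median -0.09), where 1.15% of all tested genes fell and 4.51% rose. Beside ilys-3 the falls were those of lys-6 (-0.46 ± 0.10), of lys-4 and of lys-7, and lys-3 rose (0.39 ± 0.06). The signal of lys-4 was 11.70, 11.66 and 11.63 with 0.2 mM HF, against a mean of 12.03 ± 0.06 (SD, n = 3) in controls, with no overlap (-0.37 ± 0.05, limma adjusted p = 0.006). All treated arrays of lys-6 were under the filter, so that it was tested only through the controls, where it is high. The lysozyme lys-2 (0.22 ± 0.05) did not pass, and the calls of lys-3 and lys-6 were lost without single arrays. Leaving out any array other than control 1 left 2 falls in this list.

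Of 36 tested C-type lectin-like genes 7 rose and 1 fell (median 0.07). The clearest was clec-5, with 8.27, 8.37 and 8.30 with 0.2 mM HF, against 7.63, 7.50 and 7.57 in controls (0.75 ± 0.05, limma adjusted p = 0.00041). Every treated array was well above every control. The infection-induced clec-60 rose by 0.61 ± 0.07, clec-145 by 0.71 ± 0.11 and clec-196 by 0.84 ± 0.13, and the calls of clec-145 and clec-196 were lost without treated array 1. The controls of clec-60 were all under the filter, so that it was tested only because the treated arrays were high, and the same holds for clec-51 among the 7. Without any 1 of the treated arrays between 1 and 3 rises were left in this list. Of 29 antimicrobial peptide and saposin genes 6 rose and 3 fell (median 0.11), where 4.51% of all tested genes rose and 1.15% fell. Among these rises thn-1 was tested only because the treated arrays were high. The caenacin gene cnc-2 had 9.22, 9.21 and 9.19 with 0.2 mM HF, against 8.71, 8.78 and 8.63 in controls (0.50 ± 0.05, limma adjusted p = 0.0022). Among the saposin-like genes spp-23 rose (0.48 ± 0.07) and spp-12 fell (-0.48 ± 0.09), a call that was lost without control array 1 and 4 others. None of the 3 falls was called when a treated array was left out.

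The enzymes that handle foreign compounds were divided as well. Of 21 tested cytochrome P450 genes 5 fell and 2 rose (median -0.07), where 1.15% of all tested genes fell and 4.51% rose. The gene cyp-34A8 had 7.77, 7.80 and 7.80 with 0.2 mM HF, against 6.99, 6.76 and 6.96 in controls (0.88 ± 0.07, limma adjusted p = 0.00053). By contrast cyp-14A3 had 7.73, 7.67 and 7.72 with 0.2 mM HF, against 8.28, 8.22 and 8.28 in controls (-0.55 ± 0.05, limma adjusted p = 0.00081). In each the step exceeded the spread within groups several times over. Also cyp-35A2 (-0.59 ± 0.08), a xenobiotic-inducible P450 gene, and cyp-35C1 (-0.46 ± 0.07) fell, whereas cyp-29A4 (0.47 ± 0.11) did not pass. The call of cyp-35C1 was lost without treated array 1, and between 2 and 5 falls were called in this list when single arrays were left out.

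Of 19 tested glutathione S-transferase genes 5 rose and 1 fell (median 0.14). The gene gst-5 had 8.78, 8.65 and 8.74 with 0.2 mM HF, against 8.02, 7.78 and 7.83 in controls (0.85 ± 0.07, limma adjusted p = 0.00081). In gst-19 all 3 treated arrays were at 5.18, against 5.74, 5.75 and 5.63 in controls (-0.53 ± 0.05, limma adjusted p = 0.0013). The oxidative stress reporter gene gst-4 rose by 0.43 ± 0.08, a call that was lost without control array 3 or any 1 of the treated arrays, and gst-20 rose by 0.37 ± 0.06, lost without treated array 3. Between 1 and 5 rises were called in this list when single arrays were left out. Of 22 UDP-glucuronosyltransferase genes ugt-25 (0.61 ± 0.05) and ugt-62 (0.41 ± 0.05) rose and ugt-23 fell (-0.31 ± 0.06, lost without any 1 array). Of 21 short-chain dehydrogenases 3 rose and 3 fell, and beside dhs-26 the falls were those of dhs-2 (-0.63 ± 0.06) and dhs-20 (-0.44 ± 0.09, lost without any 1 of 4 arrays). None of 15 ABC transporter genes of the multidrug type passed, where 4.51% of all tested genes rose and 1.15% fell.

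Of 31 tested genes of antioxidant, metal and sulfide defence 3 rose and 5 fell (median 0.00). The methanethiol oxidase gene semo-1 had 8.88, 8.89 and 8.88 with 0.2 mM HF, against 9.34, 9.55 and 9.60 in controls (-0.62 ± 0.07, limma adjusted p = 0.0028). The ferritin gene ftn-1 had 7.87, 7.90 and 8.04 with 0.2 mM HF, against 8.49, 8.45 and 8.48 in controls (-0.54 ± 0.06, limma adjusted p = 0.0019). Both were lower on all treated arrays. The metallothionein gene mtl-1 fell by 0.56 ± 0.12 on the log2 scale, a call that was lost without any 1 array except control 1, and the cadmium-responsive cdr-2 rose by 0.50 ± 0.06. Of 43 heat shock genes only hsp-16.2 rose (0.50 ± 0.08, lost without any 1 treated array), and hsp-16.41 (0.45 ± 0.13) did not pass. None of 24 genes of the unfolded protein response passed. Of 36 genes of fatty acid activation and beta-oxidation 2 fell: the peroxisomal acyl-CoA oxidase gene acox-1.2, with 4.65, 4.41 and 4.52 with 0.2 mM HF, against 5.58, 5.29 and 5.33 in controls (-0.87 ± 0.09), and acdh-1 (-0.59 ± 0.08), an acyl-CoA dehydrogenase gene that responds to vitamin B12 in the diet. All treated arrays of acox-1.2 were under the filter, so that it was tested only through the controls. None of 66 genes of oxidative phosphorylation, 36 of sugar metabolism, 32 of the proteasome, 33 nuclear hormone receptor genes and 27 histone genes passed, and 1 of 71 ribosomal protein genes did (rpl-11.2, 0.24 ± 0.04, lost without control array 2 or any 1 of the treated arrays). Over all tested genes 4.51% rose and 1.15% fell, so lists of this size hold few calls. The lack of calls in these lists is thus not read as a lack of response.

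The same dose at 3 days, on arrays of its own with controls of its own, gave many more calls. These too rest on the spread between arrays, which may be technical. There limma called 6530 of 9299 tested probe sets (70.2%), 2939 higher (31.6%) and 3591 lower (38.6%), or 3785 higher and 2764 lower when arrays were centred on their medians. The median size of change over all tested probe sets was 0.336 at 3 days and 0.0754 at 11 days. Of the 380 probe sets that rose at 11 days, 303 were tested at 3 days, and 235 of these were also higher at 3 days (77.6%) and 26 lower. These 235 were 7.996% of the rises at 3 days. Of the 95 that fell at 11 days, 77 were tested at 3 days, and 40 of these were higher at 3 days and 25 lower (32.5%). These 25 were 0.696% of the falls at 3 days. Thus a rise at 11 days mostly went with a rise at 3 days, where 31.6% of all tested probe sets were higher. The falls at 11 days were more often higher than lower at 3 days, and the 32.5% lower stood beside 38.6% of all tested probe sets. After centring, the counts higher and lower at 3 days were 253 and 19 for the rises, and 43 and 19 for the falls.

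MSP probe sets rose at both ages, 25 of 26 with a median of 0.87 at 11 days and all 26 with a median of 0.44 at 3 days. Their signals lay between 5.24 and 8.93 with 0.2 mM HF and between 4.16 and 8.04 in controls at 11 days, and between 10.95 and 13.90 with 0.2 mM HF and between 10.18 and 13.57 in controls at 3 days. The sizes thus come from different ranges of the scale, and whether the ages were normalized together is not given in the sources used here. The test of the difference called a larger response at 11 days in 19 of the 26 (14 after centring) and a smaller one in none, while msp-142 differed by -0.29 without a call. At 3 days 47 of 54 oocyte and germ line genes and 50 of 56 cell cycle and DNA replication genes had fallen, where 38.6% of all tested probe sets fell. At 11 days none of the first list and 1 of the second fell, where 1.15% of all tested genes fell. For 39 of the 54 oocyte and germ line genes and 49 of 57 cell cycle genes the test of the difference between ages (55.3% of 9963 probe sets called, 33.8% higher at 11 days and 21.5% lower) found the 11-day response higher. Centring moved the median of that difference over all probe sets from 0.08 to -0.05, a shift against which the medians of these lists were 0.40 and 0.47. Of 11 lysozyme genes tested at 3 days 9 rose, and 10 of 12 had a lower response at 11 days.

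The lysozyme gene ilys-3 changed in opposite directions at the 2 ages. At 3 days it had 7.89, 7.76 and 7.79 with 0.2 mM HF, against 5.41, 5.62 and 5.72 in controls, a rise of 2.23, where at 11 days it fell by 0.93 on the log2 scale. The difference between ages was -3.15 ± 0.11 (limma adjusted p = 8.7e-09). The treated worms had more signal than their controls at the one age and less at the other, with no overlap at either. C40H1.7 (1.32 at 3 days and -0.89 at 11 days), C14C6.5 (0.73 and -0.91) and acox-1.2 (0.66 and -0.87) went the same way. W02G9.4 went the other way in both of its probe sets, at -1.35 and -1.38 at 3 days and 0.70 and 0.66 at 11 days. The F-box gene fbxa-163 was higher at both ages, by 2.48 at 3 days and by 0.35 ± 0.04 at 11 days. Several leading genes of the 11-day comparison did not pass the filter at 3 days, among them T10B5.8, fil-1, fil-2, dhs-26, noah-2, dpy-14 and ftn-1.

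**Figure D4:**
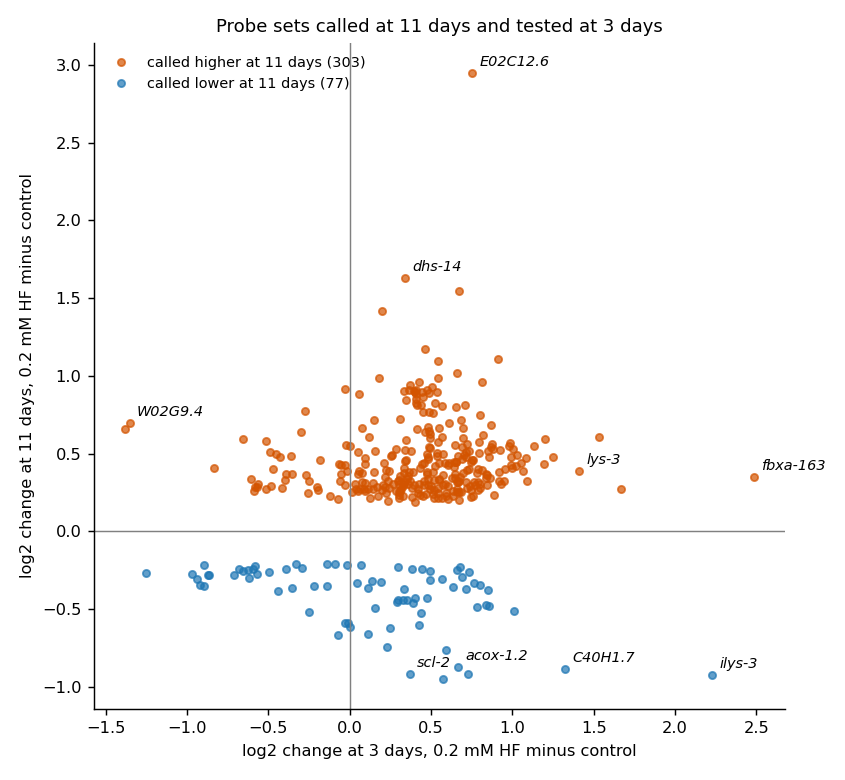
Log2 change with 0.2 mM HF at 3 days (horizontal axis) and at 11 days (vertical axis) of the 303 probe sets that rose and the 77 that fell at 11 days and were tested at 3 days. Most rises lie to the right of 0, the falls lie on both sides, and ilys-3, C40H1.7 and W02G9.4 lie far out in the quadrants of opposite sign.

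The higher dose at the same age gave other values for many of these genes. Both doses are set against the same 3 controls, and the contrast of 2.0 mM with 0.2 mM HF uses the arrays that chose the genes, so the values are given side by side and no count over the called genes is read as a result. In that contrast limma called 3686 of 9031 probe sets (40.8%), 1628 higher at 2.0 mM and 2058 lower, or 1959 higher and 1759 lower after quantile normalization. Among the 380 rises 283 were lower at 2.0 than at 0.2 mM and 28 higher, and among the 95 falls 43 were higher and 21 lower. The MSP probe sets kept their rise, with a median of 1.07 against controls at 2.0 mM and of 0.87 at 0.2 mM, and 6 of 26 differed between the doses.

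Some genes were lowest at the lower dose. The signal of dhs-26 differed from controls by -1.98 at 0.2 mM and by 0.30 at 2.0 mM (2.0 minus 0.2 mM 2.28 ± 0.09), and that of ilys-3 by -0.93 and 0.77. For spp-12 the differences were -0.48 and 1.37, for ftn-1 -0.54 and 0.39, and for Y39B6A.1 -0.77 and 1.25 by 1 probe set. Others were highest at the lower dose. M28.10 differed from controls by 1.11 at 0.2 mM and -0.09 at 2.0 mM, C17H12.8 by 1.096 and -0.21, and clec-5 by 0.75 and -0.47. The infection response gene irg-8 differed by 0.49 and -1.09, and sid-2, which takes up double-stranded RNA from the gut lumen, by 0.66 and -0.76. Between the doses the claudin-like clc-32 changed by -1.88, K08D8.6 by -1.84 and valv-1 by -1.62 (2.0 minus 0.2 mM). Further genes moved the same way at both doses: E02C12.6 was 2.95 and 2.62 above controls at 0.2 and 2.0 mM, dhs-14 was 1.63 and 1.04 above them, and gst-19 was 0.53 and 1.77 below them. The surface genes noah-2 and dpy-14 differed from controls by 0.05 and -0.08 at 2.0 mM (limma adjusted p = 0.674 and 0.336). Both were lower at 2.0 than at 0.2 mM, by 0.54 and 0.62.

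**Figure D5:**
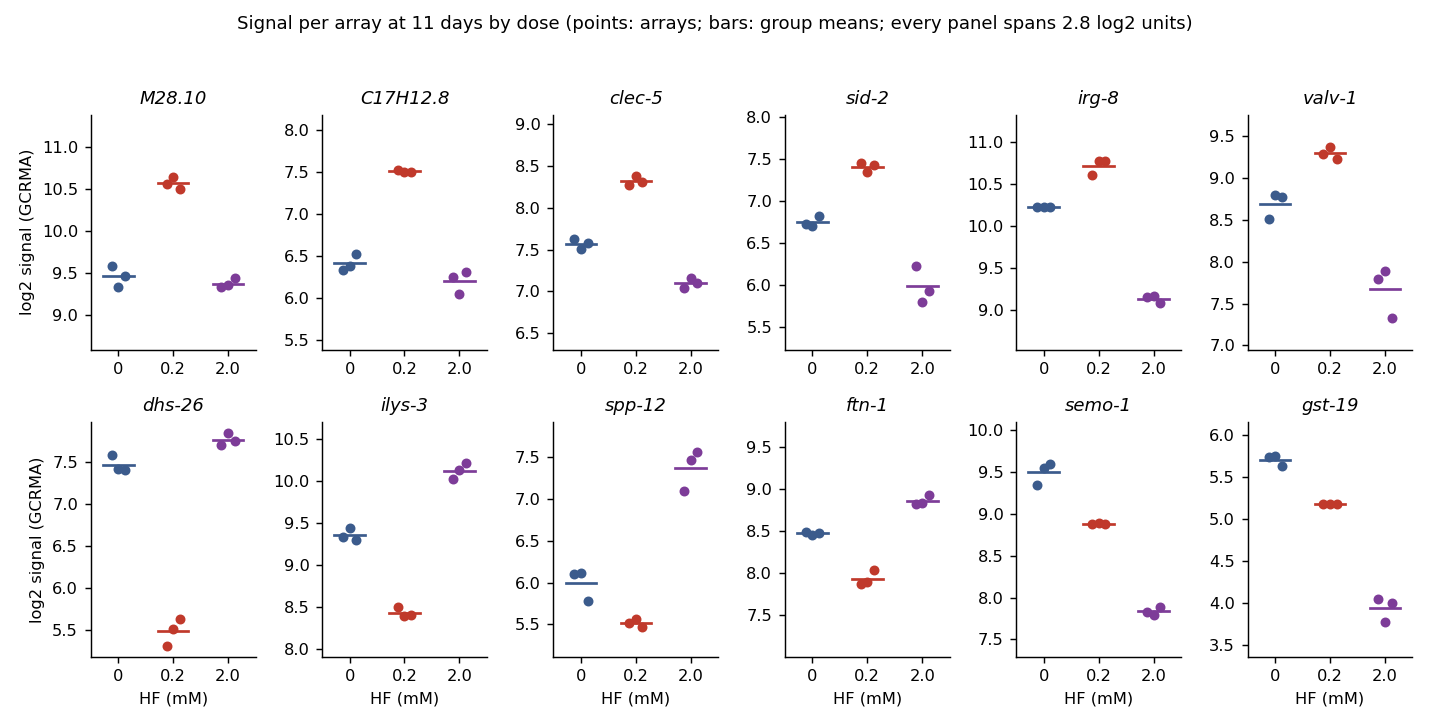
Log2 signal (vertical axes) of 12 genes at 11 days without HF, with 0.2 mM and with 2.0 mM HF (horizontal axes); points are single arrays and bars are means of 3. In the upper row 0.2 mM is the highest dose group, and in the lower row dhs-26, ilys-3, spp-12 and ftn-1 are lowest at 0.2 mM while semo-1 and gst-19 are lowest at 2.0 mM.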

How the data were processed

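RNA from whole worms, 200 ng per array, was hybridized to Affymetrix C. elegans arrays. The authors' deposited table holds log2 signals made with GCRMA, per the submitters' processing notes, which corrects probe background by base composition and normalizes between arrays; it compresses dim signals toward a floor. Control probe sets were left out. Probe sets with log2 signals over 5 on at least 3 of the 6 arrays were fitted on these arrays alone with limma 3.58.1 in R 4.3.3 (lmFit and eBayes), and p-values were adjusted by Benjamini-Hochberg over all tested probe sets, with a call under 0.05. The 3-day arrays, the 2 doses at 11 days and the difference between ages were fitted the same way on their own arrays. Gene names came from the platform annotation, updated to RefSeq by Entrez ID, and probe sets with several symbols were not named as 1 gene. In gene lists each gene counts once, by its brightest probe set. Named were the leading 16 rises and 12 falls, up to 4 called genes per list with the largest change and the strongest uncalled one, and the 5 genes each way that differed most between ages or doses, from which a part is given. The gene lists and members were chosen with earlier results of these data known. Exact permutation tests (SciPy 1.17.1, two-sided) served single values. Fits were tested on simulated data. Alternatives covered the filter, scaling, variance model, array set, a replicate block and leaving out arrays.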

Additional observations from a re-analysis of the deposited data

Results flagged for a closer look

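For 9 genes the response to 0.2 mM HF differed between the ages, by limma's test of the response at 11 days minus that at 3 days (adjusted p under 0.05 in each). The signed difference was positive for E02C12.6 (2.196, log2), fil-2 (1.35), dbd-2 (1.31) and W02G9.4 (2.05 and 2.04 by its probe sets), the last of which fell at 3 days and rose at 11 days. It was negative for ilys-3 (-3.15), T10B5.8 (-2.65), C40H1.7 (-2.21), fbxa-163 (-2.14) and C14C6.5 (-1.64). The 11-day arrays that enter these differences are those on which the genes were called. For fil-2, dbd-2 and T10B5.8 the signals at 3 days did not pass the filter. All 3-day arrays of fil-2 lay between 2.09 and 2.11, and those of T10B5.8 between 2.90 and 2.96. The differences of these 2 genes thus repeat their 11-day changes of 1.34 and -2.67 and are no separate test of age. For dbd-2 the dim 3-day signals, 3.89, 3.91 and 3.89 with 0.2 mM HF against 4.15, 4.43 and 4.18 in controls, add to the difference.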

How the results depend on the processing

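Without a filter on low values 266 probe sets were called, 214 higher and 52 lower. With array weights 147 were lower. Leaving out single arrays gave between 182 and 573 calls, from 150 to 439 higher and from 32 to 134 lower; leaving out control array 1 was added after seeing the data. Centring, quantile normalization, a variance trend, a robust fit, a filter at log2 7 and fits with 9 or 27 arrays gave between 357 and 531 calls. The counts for 3 days, for the difference between ages and for the difference between doses stayed within 1.5 times under every alternative run. Same-numbered arrays correlated in their deviations from the group means at 0.062, 0.064 and 0.114, so the numbers were not taken as pairs, although each array correlated best with its own number; with the replicate block 385 probe sets were called. Over the named genes and their alternatives 2409 values were computed, of which 2047 kept their call, 362 had another and 0 reversed. The cause of these changes was not tested. The number of arrays and, for dim probes, the signal over background limit these results.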

Other observations

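Some groups were formed after their values were seen and are given as values only. Of 7 tested genes of haem and iron handling 3 were higher with 0.2 mM HF (hrg-7 by 1.42, the haem transporter gene hrg-1 by 0.50 and the ferroportin-like gene fpn-1.1 by 0.45) and ftn-1 was lower (-0.54). Of 5 genes of the propionate shunt, the route that breaks down propionate when vitamin B12 is scarce, acdh-1 (-0.59) and hphd-1 (-0.49) were lower, and all 5 changes were below 0. Of 7 tested genes of the hypoxia and sulfide pathway rhy-1 (-0.60) and ethe-1 (-0.25) were lower. By name, 5 of 6 tested claudin-like clc genes were higher. Among the nuclear chromosomes (none of 8 tested mitochondrial genes was called), the share of tested genes that were higher ran from 2.72% on chromosome I to 6.36% on X, and the share lower from 0.622% on I to 2.54% on V.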
